A study of Mus musculus with 2 samples.

Results

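ATAC-seq marks open chromatin by the insertion of a transposase, and 924 of the 29415 accessible regions of these regulatory T cells had their summit in an exon of a protein-coding gene, away from every promoter. They made up 3.14% of all regions (95% exact binomial interval 2.95 to 3.35%). A region counted here when overlapping or touching peaks had been merged, its highest peak had a summit inside such an exon, and that summit lay over 1000 bp from every annotated start of a protein-coding or long noncoding transcript. No other property of a region chose it. Both libraries came from inflammation-experienced regulatory T cells of 1 adult male mouse aged 6 months, of the strain Foxp3CreERT2 x Rosa26YFP, are labelled as primary cells that derive from bone marrow, and are technical replicates 1 and 2 of biological replicate 1. In this strain the Foxp3 gene, the defining transcription factor of regulatory T cells, drives an inducible recombinase that switches on a fluorescent reporter, so cells that once expressed Foxp3 can be traced. No resting, uninflamed or other cell type stands beside them, so regions are compared within 1 list and no condition was tested. Foxp3 had an accessible promoter and 2 regions in its body, Il2ra and Ctla4 had 7 each and Ikzf2 had 9, and 19 of 23 core regulatory T cell genes had an accessible promoter. Here and below, the body is the whole annotated span of the gene, so a promoter region with its summit inside that span is counted in it as well. Cd4, a surface marker of these cells, had a region in its body and no accessible promoter. Of the genes listed for other cell types, 2 of 11 B cell, 2 of 12 myeloid, 4 of 12 cytotoxic, 2 of 10 erythroid, 2 of 10 neuron, 0 of 10 muscle and 0 of 10 liver genes had an accessible promoter, and their bodies held between 0 (liver) and 7 (B cell) regions per list. The depth of the libraries is unknown, and all intervals below cover counting error only.

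Exons hold the sequence that is spliced into mature RNA, and in vertebrates some of them are also bound by transcription factors and act as enhancers, often of a neighbouring gene. A base in such an exon is then under 2 kinds of constraint, from the protein it encodes and from the factors that read it as DNA. CTCF, the insulator protein that anchors chromatin loops, binds a long motif within genes as well as between them. ETS, RUNX and AP-1 factors occupy most enhancers of T cells, and NF-kB factors join them after antigen or cytokine signals. Away from promoters, accessible sites in mammalian cells lie mostly in introns and between genes.

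The windows below are printed because their summits fall inside coding sequence and because they show which letters of a protein-coding exon lie under an accessible summit. Each gives the base of the summit with 50 bases on either side, 5' to 3' on the strand of the gene, from GRCm38.p6 (mm10), and can run into the flanking intron. The first set holds 5 coding-sequence regions of high fold with a match to the CTCF consensus, which is in capitals.
Kcnj10, exon 2 of 2, plus strand, chr1:172368888-172368988: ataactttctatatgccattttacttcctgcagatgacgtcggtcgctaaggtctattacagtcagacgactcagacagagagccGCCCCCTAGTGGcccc
Synpo2l, exon 4 of 4, minus strand, chr14:20661076-20661176: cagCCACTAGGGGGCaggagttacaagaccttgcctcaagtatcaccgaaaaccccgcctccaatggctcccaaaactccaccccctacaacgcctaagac
Hook2, exon 15 of 22, plus strand, chr8:84998033-84998133: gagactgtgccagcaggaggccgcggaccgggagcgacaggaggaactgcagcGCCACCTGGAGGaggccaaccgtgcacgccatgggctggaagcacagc
Zscan10, exon 6 of 6, plus strand, chr17:23610632-23610732: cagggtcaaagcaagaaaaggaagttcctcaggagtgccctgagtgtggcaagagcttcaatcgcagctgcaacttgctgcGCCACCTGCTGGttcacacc
Tacr2, exon 3 of 5, plus strand, chr10:62261221-62261321: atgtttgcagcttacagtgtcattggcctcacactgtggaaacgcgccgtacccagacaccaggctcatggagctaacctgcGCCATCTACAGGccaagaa

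The second set holds windows with a motif match from among the highest coding-sequence regions and from Hdac4, a chromatin regulator. The window of Inhbe, with a fold of 26.5, held no match to the factor motifs and is not printed. Of all exonic summits 28.7% held none. Capitals mark a TCF/LEF match (CTTTGAN) in Dpp4, matches of the ETS form common in T cells (CAGGAAG or its reverse complement) in Krt222, Sult2b1, Hunk and Hdac4, and a RUNX match (TGTGGT, here as its reverse complement) in Klhdc1.
Dpp4, exon 20 of 26, minus strand, chr2:62352165-62352265: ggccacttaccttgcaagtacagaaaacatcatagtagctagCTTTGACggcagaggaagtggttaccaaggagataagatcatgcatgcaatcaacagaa
Krt222, exon 3 of 6, minus strand, chr11:99238616-99238716: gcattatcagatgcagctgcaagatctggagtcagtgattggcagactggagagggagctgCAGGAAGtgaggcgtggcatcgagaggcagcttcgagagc
Sult2b1, exon 4 of 6, minus strand, chr7:45733608-45733708: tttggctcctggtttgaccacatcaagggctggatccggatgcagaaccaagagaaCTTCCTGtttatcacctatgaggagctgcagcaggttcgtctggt
Klhdc1, exon 7 of 13, plus strand, chr12:69257978-69258078: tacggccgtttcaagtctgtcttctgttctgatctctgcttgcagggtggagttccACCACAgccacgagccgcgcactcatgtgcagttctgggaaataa
Hunk, exon 7 of 11, plus strand, chr16:90475851-90475951: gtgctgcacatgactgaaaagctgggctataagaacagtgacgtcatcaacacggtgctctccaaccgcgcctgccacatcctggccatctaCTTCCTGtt
Hdac4, exon 10 of 27, minus strand, chr1:91984659-91984759: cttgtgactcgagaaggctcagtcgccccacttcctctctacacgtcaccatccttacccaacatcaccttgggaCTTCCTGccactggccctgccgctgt

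The exonic regions fell into 4 parts of the transcript. Summits in 3' UTRs numbered 332 (35.9%, 32.8 to 39.1%), and 314 lay in coding sequence (34.0%, 30.9 to 37.1%). A further 255 (27.6%) lay only in exons of noncoding transcripts of the coding gene, 202 of them in transcripts annotated as retaining an intron and 53 in processed transcripts, so these summits sit in what is intron for the protein-coding forms. Only 23 summits (2.49%) lay in 5' UTRs, the part of a transcript that usually begins at its start. For 270 of the 924 regions (29.2%) no protein-coding transcript had an exon at the summit, 5 of the coding-sequence summits included. At 16 summits exons of 2 coding genes overlapped, as at Vcl with Ap3m1 and at Kif20a with Cdc23, and there the host gene named is the one of the longest coding sequence.

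Per base, exons held somewhat more regions than introns. The density was 11.7 regions per Mb of exon (10.97 to 12.5, over 78.9 Mb), against 9.65 per Mb of coding-gene intron (9.45 to 9.85), a ratio of 1.21 (1.13 to 1.30). Intergenic sequence held 4.89 regions per Mb and the 1000 bp around starts held 130 per Mb. Coding sequence had 10.8 and 3' UTRs had 10.4 regions per Mb, with ratios to intron of 1.11 (0.993 to 1.25) and 1.08 (0.964 to 1.20), both with intervals that include 1. The ratio was higher in exons of noncoding transcripts, with 14.96 regions per Mb and 1.55 times the intronic density (1.36 to 1.76), and in 5' UTRs, with 30.3 per Mb and 3.14 times (1.99 to 4.71). Summits of these 2 classes also lay most often near a start that the 1000 bp rule does not use. A start of a transcript of some other type lay within 1000 bp of 38.8% of the summits in noncoding-transcript exons, 34.8% of those in 5' UTRs, 19.8% of those in coding sequence and 5.72% of those in 3' UTRs, against 6.17% of intronic summits. With such starts excluded as well, 736 exonic regions were left and the ratio to intron was 1.15 (1.06 to 1.24).

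**Figure D1:**
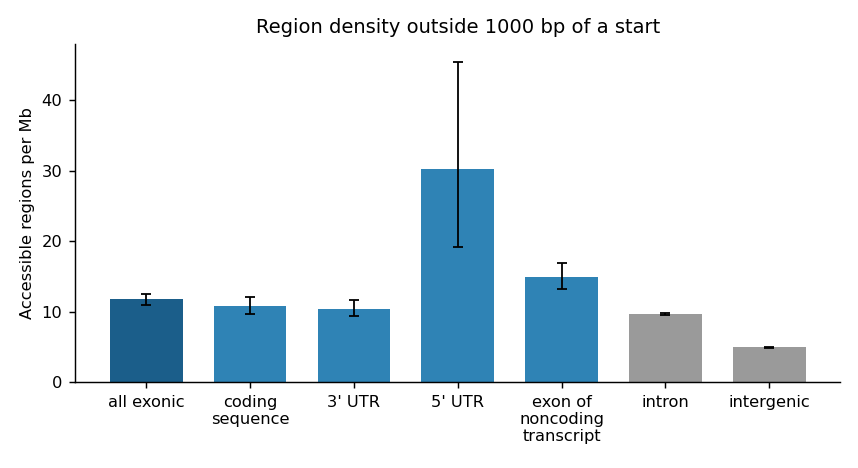
Accessible regions per Mb of sequence over 1000 bp from a start (y axis), for all exons of coding genes and their 4 parts (blue) and for introns and intergenic sequence (grey); bars are counts over space and whiskers are 95% exact Poisson intervals. Coding sequence at 10.8 and 3' UTRs at 10.4 per Mb lie near introns at 9.65, while 5' UTRs reach 30.3 with a wide interval.

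The difference between exons and introns depended on distance from a start. Between 1000 and 2000 bp from a start exons held 16.8 regions per Mb (13.97 to 19.97) and introns 18.8 (17.5 to 20.3). From 2000 to 5000 bp exons held 12.6 and introns 12.7, and from 5000 to 20000 bp exons held 12.01 and introns 13.0. In all these classes the exonic density was the lower one, with intervals that overlapped. Beyond 20000 bp exons held 8.999 regions per Mb (7.81 to 10.3), against 6.31 in introns (6.09 to 6.54). Only in that class was the exonic density higher, with intervals apart. Exonic summits lay a median of 7677 bp from the nearest start (7107 to 8614) and intronic summits 12920 bp (12557 to 13315). Just inside the 1000 bp limit lay regions in Saa3, a serum amyloid gene, at 1019 bp with a fold of 5.77, and in Cep19, a centrosomal protein, and Brd2, a reader of acetylated histones, both at 1024 bp with folds of 17.3 and 10.98. The nearest exonic summits outside it lay 985, 979, 975 and 971 bp from a start, with folds of 11.8, 10.4, 10.8 and 3.92.

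Coding sequence was also classed by the longest annotated exon that holds each base, in any transcript of a coding gene. A short coding exon inside a longer exon of a transcript that retains an intron therefore counts as long. Per base, the classes of up to 200 bp held somewhat fewer regions than the longer ones, with no steady increase above that length. The classes of up to 100 bp and of over 100 and up to 200 bp had 8.42 (5.45 to 12.4) and 8.44 (6.72 to 10.5) coding-sequence regions per Mb. Those of over 200 and up to 500 bp had 12.06 (9.27 to 15.4), those of over 500 and up to 1000 bp had 15.3 (10.96 to 20.7) and those over 1000 bp had 12.01 (9.80 to 14.6). The intervals of neighbouring classes overlapped. Internal exons held 203 of the 314 coding-sequence summits (64.6%) and last exons 32.2%, while single-exon genes held 7 and first exons 3. Most regions reached past their exon: 65.9% of the coding-sequence regions were wider than the exon, and over the 203 in internal exons the median exon was 165 bp, the median region 553 bp, and a median of 43.4% of a region's bases was exonic. In internal exons 54.7% of summits (47.6 to 61.7%) lay within 50 bp of a splice site, beside 59.7% of the bases of those exons, a share inside that interval. The 3' UTR regions differed in this: 78.0% lay wholly in exons, and the summit was a median of 961.5 bp (789 to 1175) from the transcript end.

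In height, exonic regions resembled intronic ones. The authors' peak caller gave every peak a fold enrichment, a linear ratio to a background that is not stated, and a region takes that of its highest peak. In a bulk sample such as this, a site open in fewer cells and a site less open in each cell cannot be told apart. The median fold of exonic regions was 11.5 (11.1 to 11.95), against 11.4 for intronic (11.3 to 11.6), 12.6 for intergenic and 15.2 for promoter regions. Coding-sequence regions had a median of 12.4 (11.6 to 13.3), those in 3' UTRs 11.1 (10.4 to 11.9) and those in noncoding-transcript exons 11.2 (10.4 to 11.8). Within the 368 genes that held both kinds, the median fold was 11.4 for the exonic and 11.5 for the intronic regions, and the exonic one was higher in 187 genes (50.8%, 45.6 to 56.0%). Widths were similar too, with a median of 543 bp for exonic, 533 bp for intronic and 892 bp for promoter regions. More than 1 summit was found in 43.7% of exonic regions (40.5 to 47.0%), against 39.2% of intronic (38.2 to 40.2%) and 77.9% of promoter regions. Coding-sequence regions stood at 50.3% (44.6 to 56.0%), above introns with intervals apart.

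**Figure D2:**
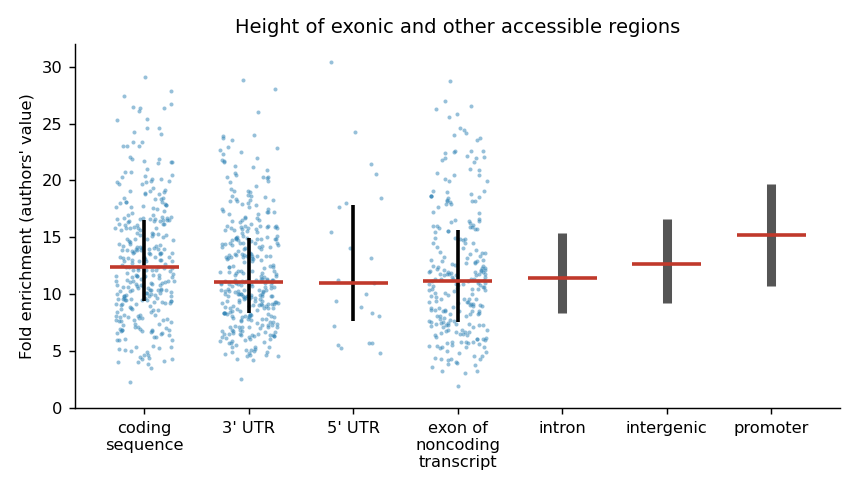
Fold enrichment of each exonic region (y axis, the authors' value), as 1 blue point per region in the 4 parts of exons, with the interquartile range (vertical bar) and median (red line), beside the interquartile ranges and medians of intronic, intergenic and promoter regions. Medians of the exonic parts run between 10.98 and 12.4, near the intronic 11.4 and below the promoter median of 15.2.

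The fold also moved with how close the next region lay. Exonic regions with a neighbour less than 1000 bp away had a median fold of 7.39 (6.80 to 8.13), and intronic ones 7.86 (7.65 to 8.09). With the next region 5000 to 20000 bp away the medians were 14.01 (13.3 to 14.8) for exonic and 13.5 (13.3 to 13.7) for intronic regions. What background the authors' fold was taken over is not stated, so its part in this relation was not tested. The lowest folds were those of Zdhhc20 at 1.96, Limd1 at 2.28 and Btg1 at 2.54, and the regions in Zdhhc20 and Limd1 lay 46 bp from a neighbour. The 2 sets that the authors ranked against each other gave −log10 p-values within 2-fold of one another for 907 of the 924 exonic regions (98.2%) and for 98.5% of the intronic ones. Their Spearman correlation over the 924 regions, which share both libraries, was 0.891. Peaks entered the list used here by agreement between ranked sets (the IDR). These values are therefore partly fixed by that selection and do not measure reproducibility.

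The highest coding-sequence region lay in Dpp4, which encodes CD26, a peptidase on the surface of T cells. It covered chr2:62352024-62352602, with the summit in exon 20 of 26, 60016 bp downstream of the gene's nearest protein-coding start. Its fold was 29.1 and the −log10 p-values in the 2 ranked sets were 209 and 184. Ipo11, a nuclear import receptor, followed with 27.9. At Ipo11, however, a transcript of another type starts 85 bp from the summit, and no protein-coding transcript has an exon there. Kansl1, a scaffold of a histone acetyltransferase complex, had a fold of 27.4 and also such a start, 116 bp away. Kif20a, a mitotic kinesin, had 26.7, and Inhbe, a secreted subunit of the activin family, had 26.5. Kcnj10, a potassium channel best known from glia, had 26.4, and Sult2b1, a sulfotransferase of sterols, had 26.1. Krt222, Klhdc1, Hunk, Enpp1 and Synpo2l, the last an actin-associated protein of muscle, completed the 12 highest with folds of 26.3, 25.4, 25.3, 24.6 and 24.6. Several of these genes are known mainly from other tissues, and the promoters of Inhbe, Krt222, Hunk and Synpo2l had no accessible region. At Krt222 a transcript of another type starts 209 bp from the summit.

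The highest 3' UTR regions lay in Rdh13, a mitochondrial dehydrogenase, with a fold of 28.9, and in Lars2, the mitochondrial leucyl-tRNA synthetase, with 28.01. Vcl, which encodes the adhesion protein vinculin, had 24.0, and Cst7, a protease inhibitor of lymphoid and myeloid cells, had 23.9. Dirc2, 1810043G02Rik and Coa5 had 23.7, 23.5 and 22.9. The Lars2 region had the highest −log10 p of all 3' UTR regions, 540. A stretch of at least 50 bp with at least 80% identity to the mitochondrial genome was found in 0 of the 924 exonic regions and in 20 of the 29415 regions. The single highest exonic region of all was that of Sf3b5, a subunit of the splicing factor SF3b, with a fold of 30.5 at chr10:13007955-13008759, 3023 bp downstream of its only protein-coding start, whose promoter had no accessible region. The next 5' UTR regions, of Zkscan7, a zinc-finger gene, Nup160, a nucleoporin, and Bend6, had folds of 24.2, 21.5 and 20.6. The promoters of Nup160 and Bend6 had no accessible region either, and at Bend6 a transcript of another type starts 88 bp from the summit. Whether such regions lie at starts missing from the annotation was not tested. The widest regions lay in the single-exon genes B430305J03Rik (1814 bp) and Magee1 (1717 bp) and in Dlgap5, a spindle protein (1597 bp).

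Coding-sequence summits lay in sequence richer in CpG dinucleotides than the centres of coding exons without a region. CpG dinucleotides are depleted by mutation wherever the genome is methylated and kept in CpG islands. Within 50 bp of the summit, CpG observed over expected had a median of 0.542 (0.482 to 0.584) in coding sequence, against 0.351 (0.351 to 0.353) at the centres of 197745 coding exons without a region. Those exons had a median length of 124 bp, against 235 bp for the exons of the summits, and the part of exon length was not tested. G+C was 56.9% around coding-sequence summits and 50.5% at those centres. The CpG ratio differed in the same direction in 3' UTRs, with 0.311 (0.255 to 0.332) around summits against 0.183 (0.178 to 0.185) at exon centres, and in noncoding-transcript exons, with 0.283 against 0.185. Over all exonic summits the ratio was 0.379 (0.351 to 0.409), against 0.244 in introns, 0.289 between genes and 0.807 in promoters. With G+C of at least 50% and a ratio of at least 0.6 taken as CpG-rich, 36.9% of coding-sequence summits qualified (31.6 to 42.5%). Of coding exon centres 10.7% did, of intronic summits 5.55% and of promoter summits 69.8%. Over all 29415 regions, promoters included, the share was 33.1%, inside the coding-sequence interval. In 5' UTRs 11 of 23 summits qualified (47.8%, 26.8 to 69.4%). Among them were Sf3b5, Zkscan7, Nup160 and Bend6, with ratios of 0.845, 0.673, 1.16 and 0.719.

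**Figure D3:**
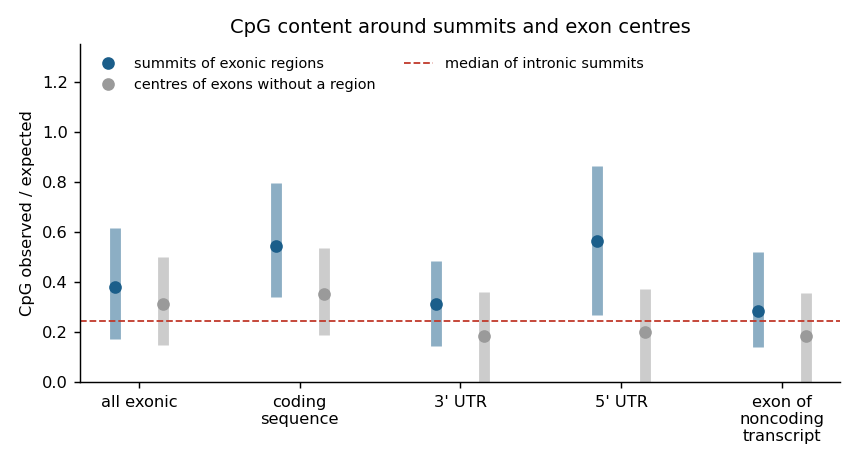
CpG observed over expected (y axis) within 50 bp of the summits of exonic regions (blue) and of the centres of exons without a region (grey); points are medians, bars interquartile ranges, and the dashed line is the median of intronic summits, 0.244. Coding-sequence summits have a median of 0.542, against 0.351 at coding exon centres.

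The 116 CpG-rich coding-sequence regions differed from the other 198 in their setting. They lay in longer exons, with a median of 746 bp (340 to 921) against 194 bp (162 to 215), and 52.6% of them (43.1 to 61.9%) lay in last or single exons, against 23.7% (17.99 to 30.3%). They were wider, 733 bp against 554.5 bp, and nearer to a start, 4409 bp against 9444 bp. Their folds did not stand apart, with medians of 12.3 (11.1 to 13.6) and 12.8 (11.4 to 13.7). The promoter of the host gene was accessible for 57.8% of the CpG-rich (48.2 to 66.9%) and 69.7% of the other coding-sequence regions (62.8 to 76.0%). Over all coding genes 49.7% had an accessible promoter, which lies inside the interval of the CpG-rich regions. In 49 cases a CpG-rich coding-sequence region lay in a gene with no accessible promoter. Chosen after their values were seen, examples are Pomc, the hormone precursor of the pituitary, with a fold of 18.5 in its last exon and a CpG ratio of 0.918, and Fgf23, a phosphate-regulating hormone of bone, with 16.7 and 0.679. The last exon of Nrg2, a growth factor of neurons, had a fold of 15.03 and a CpG ratio of 0.935.

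Among 25 motifs searched on both strands within 50 bp of the summit, CTCF was the one that exonic summits held most often relative to exon background. A CTCF match was found at 102 of 924 exonic summits (11.04%, 9.09 to 13.2%), against 6.61% of intronic (6.10 to 7.15%) and 1.88% of promoter summits, and 5.55% of all 29415. Intergenic summits had a share of 9.07% (8.45 to 9.72%), an interval that overlaps the exonic one. At exon centres without a region the share was 0.163%, and in windows 500 bp to either side of the exonic summits it was 0.216%. The share was alike in coding sequence (11.8%), 3' UTRs (11.7%) and noncoding-transcript exons (9.80%). Since exonic summits are richer in G+C, the shares were also read in 5 classes of G+C. The exonic share was above the intronic one in each, from 4.14% against 3.79% below 45% G+C to 18.2% (13.3 to 24.1%) against 10.1% (7.89 to 12.6%) at 60% and over, and only in that last class were the intervals apart. Against intergenic summits the order was mixed. From the lowest to the highest G+C class, exonic shares were 4.14, 9.04, 10.45, 10.83 and 18.2%. Intergenic shares were 4.65, 7.28, 10.15, 13.95 and 12.8%, with intervals that overlapped the exonic ones in each class. In 3 classes of distance from a start the exonic shares were 11.5, 11.6 and 9.31%, against intronic shares of 5.62, 7.16 and 6.56% and intergenic shares of 9.28, 10.6 and 7.59%.

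Regions with a CTCF match were narrow. Their median width was 445 bp (417 to 482) in exons and 430 bp in introns, against 564.5 bp (536 to 592) for other exonic and 542 bp for other intronic regions, and the match centre lay a median of 16.5 bp from the summit. The match ran in the direction of the gene at 44 of 102 exonic summits (43.1%, 33.4 to 53.3%). The highest exonic regions with a match lay in Kcnj10 and Synpo2l, both given above, in Neil3, a DNA repair glycosylase (fold 23.5), and in Hook2, a cargo adaptor (23.4). Zscan10, a zinc-finger factor of embryonic stem cells, had 21.01, Tacr2, the neurokinin A receptor, 20.4, Tbc1d23 18.97 and Skap2, an adaptor of leukocyte signalling, 18.95. Transcripts of another type start 408 bp from the Hook2 summit and 808 bp from the Tbc1d23 summit.

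Of the motifs of T cell enhancers, AP-1, RUNX and NF-kB were less frequent at exonic than at intronic summits, with intervals apart. AP-1 (TGANTCA) matched at 4.98% of exonic summits (3.67 to 6.58%) and 9.04% of intronic ones (8.44 to 9.66%), with 6.35% over all regions. RUNX (TGTGGT) matched at 14.5% (12.3 to 16.9%) of exonic and 19.9% (19.1 to 20.8%) of intronic summits, with 13.7% over all. NF-kB matched at 2.38% (1.50 to 3.58%) of exonic and 4.94% (4.49 to 5.41%) of intronic summits, with 3.797% over all. In each of the 5 G+C classes and each of the 3 distance classes the exonic share of all 3 motifs was below the intronic one. In most of these classes the intervals overlapped. They were apart for NF-kB only at 60% G+C and over, and for AP-1 and RUNX only from 5000 to 20000 bp from a start. Against exon centres all were higher: 2.32% of centres held AP-1, 7.47% RUNX and 1.12% NF-kB. In coding sequence 3.18% (1.54 to 5.78%) of summits held AP-1, against 3.98% of their own flanking windows and 2.16% of coding exon centres. The ETS form common in T cells (CAGGAAG) matched at 18.3% (15.9 to 20.9%) of exonic and 21.8% (20.95 to 22.7%) of intronic summits, with intervals that nearly met, and at 4.73% of exon centres. IRF matched at 5.52% (4.14 to 7.19%) of exonic and 6.62% of intronic summits, and STAT at 2.60% (1.67 to 3.84%) and 3.40%. Both intronic shares lie inside the exonic intervals. E2A/HEB, given below, was higher at exonic than at intronic summits, with intervals that overlapped.

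Of the motifs typical of promoters, an ETS form and KLF/SP were more frequent at exonic than at intronic summits with intervals apart, and others were not. The ETS form CCGGAAG matched at 4.22% (3.02 to 5.72%) of exonic summits, 6.05% of those in coding sequence, 2.31% (2.01 to 2.65%) of intronic and 12.2% of promoter summits, with 6.51% over all regions. KLF/SP (GGGCGGG) matched at 5.09% (3.76 to 6.71%) of exonic, 2.99% (2.64 to 3.37%) of intronic and 26.8% of promoter summits, with 12.8% over all regions. NF-Y (CCAATC) matched at 2.71% (1.76 to 3.97%) of exonic, 3.09% of intronic and 14.3% of promoter summits, and CRE (TGACGTCA) at 0.541% (0.176 to 1.26%) of exonic, 0.584% of intronic and 2.83% of promoter summits, both with the intronic share inside the exonic interval. E2A/HEB (CAGGTG) matched at 11.5% (9.49 to 13.7%) of exonic and 9.12% (8.52 to 9.74%) of intronic summits, and at 10.04% of exon centres, which lies inside the exonic interval. TCF/LEF (CTTTGAN), marked above in Dpp4, matched at 8.12% (6.44 to 10.1%) of exonic and 9.35% of intronic summits, and at 7.92% of exon centres. Both of these lie inside the exonic interval. YY1 (AAGATGGCG) matched at 0 of 924 exonic summits, which allows a share of up to 0.398%, against 0.206% of intronic summits. The exact REST letters searched matched at none of the 29415 summits and none of the exon centres, so they describe nothing here. The poly(A) signal AATAAA was found at 5.42% (3.24 to 8.43%) of 3' UTR summits, against 12.9% of 3' UTR exon centres and 13.2% of the windows 500 bp to either side of those summits. It was less frequent than in such windows at intronic summits as well, with 4.08% against 12.3%. A 5' splice donor (GTAAGT) was found at 4.14% (2.22 to 6.98%) of coding-sequence summits, and the 5.93% of coding exon centres lies inside that interval. None of the factor motifs matched at 28.7% of exonic (25.8 to 31.7%) and 24.3% of intronic summits (23.4 to 25.2%). A match describes letters in a window and does not show binding.

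**Figure D4:**
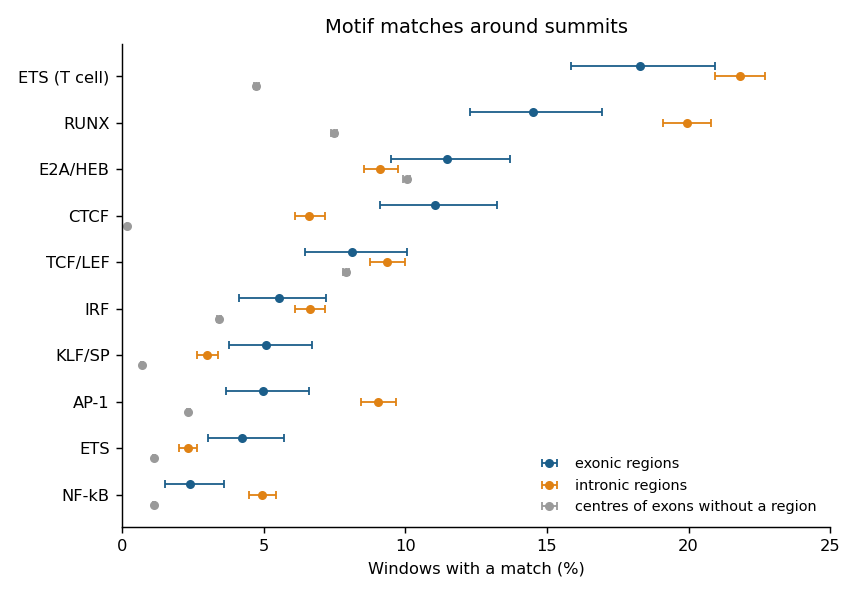
Share of windows, 50 bp on either side of a summit or centre, with a motif match (x axis, percent) for exonic regions (blue, top of each group), intronic regions (orange) and centres of exons without a region (grey); points are shares and whiskers 95% exact binomial intervals. CTCF lies at 11.04% in exonic against 6.61% in intronic regions, while AP-1, RUNX and NF-kB lie lower in exonic regions.

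The 924 regions lay in 860 genes, 859 of them with an annotated protein-coding start, out of 21853 such coding genes (3.93%). In 804 genes there was 1 exonic region, 56 genes held 2 or more and 7 held 3 or more. Enpp1, an ectoenzyme that hydrolyses ATP and cGAMP, held 4, in coding exon 20, in 2 places of its 3' UTR and in a noncoding transcript, with folds of 24.6, 7.15, 4.95 and 10.3. The genes with 3 were Akap13, an anchoring protein of protein kinase A, Btbd19, Frmd4b, Lclat1, an acyltransferase of cardiolipin, Myh9, the nonmuscle myosin heavy chain, and Rassf2, a Ras-binding adaptor. All 3 regions of Myh9 and of Frmd4b lay in exons of noncoding transcripts. In Akap13, with 24 regions in its gene body, the 3 exonic folds were 10.4, 5.78 and 4.33, and in Lclat1 they were 9.59, 5.34 and 4.29.

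Most host genes had an accessible promoter in the whole list. Of the 859, 635 (73.9%, 70.9 to 76.8%) had a region overlapping the 1000 bp on either side of a protein-coding start. That share was 76.8% (75.5 to 78.1%) for genes with an intronic region, 43.0% for genes with neither and 49.7% for all coding genes. The exonic or intronic region itself counted where it reached that far, as in Magee1, and how often it did was not counted. In the upper 50% of regions by fold, where promoter regions had to pass the same limit, the share was 44.96% (165 of 367 host genes). The shares of all coding genes and of genes with an intronic region were not computed at that limit, so the value cannot be set beside those above. In the whole list the share was 65.9% (60.3 to 71.2%) for genes with a coding-sequence region and 74.4% (69.2 to 79.2%) for those with a 3' UTR region. Genes with an exonic and no intronic region stood at 67.2% (62.9 to 71.4%), and those with an intronic and no exonic region at 76.2% (74.8 to 77.6%). Gene length differed between these sets and its part was not tested: the medians were 31338 bp for genes with an exonic region, 57737 bp for genes with an intronic region and 12798 bp for genes with neither. Exonic regions in genes with no accessible promoter were CpG-rich at 33.3% of summits (27.4 to 39.7%), against 16.8% (14.1 to 19.8%) in genes with one. The parts were mixed differently: 109 of the former 240 regions and 205 of the latter 684 lay in coding sequence. In coding sequence the shares were 44.95% (35.4 to 54.8%) against 32.7% (26.3 to 39.6%), and in 3' UTRs 16.5% against 10.9%, both with overlapping intervals. In noncoding-transcript exons they were 31.6% (17.5 to 48.7%) against 6.91% (3.92 to 11.1%), with intervals apart.

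In genes of the T cell, exonic regions were low in fold. Of 23 core regulatory T cell genes, 6 held an exonic region (26.1%): Il2rb, a chain of the IL-2 receptor, the transcription factor Ikzf2 with 2 regions, Tnfrsf1b, the enzyme Nt5e (CD73), the cytokine Tgfb1 and the receptor Nrp1. Over all coding genes the share was 3.93%, but the bodies of these 23 genes held 83 regions, whereas the median coding gene held 0. None of 25 effector and tissue regulatory T cell genes held one, although their introns held 41 regions. Of 18 naive T cell genes 3 did (Ccr7, S1pr1 with 2, Il6ra), of 21 T cell identity genes 3 did (Cd3d and Skap1 among them), of 22 signalling genes 3 did (Nfkb1, Plcg1, Ptpn22 with 2) and of 16 AP-1 family genes 1 did (Mafg). Over these 6 lists together, 19 regions were exonic and 345 intronic, so that 5.22% of the exonic and intronic regions in these genes were exonic, beside 9.57% (8.99 to 10.2%) for all coding genes. The lists differed in this: the share was 10.4% for core regulatory T cell genes, where 7 were exonic and 60 intronic, and 3.37% for T cell identity genes, where 3 were exonic and 86 intronic. Foxp3 itself, Il2ra and Ctla4 held none.

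The 19 exonic regions in T cell genes had a median fold of 6.67 (6.17 to 9.07), and the 345 intronic regions of the same lists had 8.06 (7.50 to 8.62), against 11.5 for all exonic regions. Their next region lay a median of 3116 bp away, against 6882 bp for all exonic regions, and its part in the lower fold was not tested. Only 3 of the 19 lay above the exonic median, among them those of Plcg1 and Il6ra. Plcg1, the phospholipase downstream of the T cell receptor, had a fold of 20.5, with the summit in the last exon of a noncoding transcript 3068 bp upstream of its nearest protein-coding start. Il6ra, the IL-6 receptor, had 13.3 in its 3' UTR. The regions of Il2rb, Ikzf2, Tnfrsf1b, Nt5e, Tgfb1 and Nrp1 ran from 5.00 to 7.40. The regions of S1pr1, the receptor for exit from lymphoid organs, lay in its coding sequence with 5.98 and in its 5' UTR with 4.82, and the phosphatase gene Ptpn22 had 9.07 in coding exon 13 and 6.17 in a noncoding transcript.

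Chromatin regulators held exonic regions in 5 of 25 genes, beside 3.93% of all coding genes. Their bodies held 87 regions, and of the exonic and intronic ones 6 were exonic and 65 intronic, 8.45% beside the 9.57% of all coding genes. Hdac4, a histone deacetylase, had 14.8 in coding exon 10 and 10.4 in a noncoding transcript, and Chd7, a nucleosome remodeller, had 13.8 in coding exon 29. Brd2 had 10.98 and Kdm6b, a demethylase of lysine 27 on histone H3, had 8.32, both in 5' UTRs, and Dnmt3a, a DNA methyltransferase, had 4.30. At Brd2 a transcript of another type starts 3 bp from the summit and the summit is repeat-masked. Of 18 interferon response genes, Rsad2 with 14.1 and Ifit3 with 9.75 held a region, both in 3' UTRs. The lists for other cell types held 2 exonic regions over 75 genes, in Klf1, an erythroid transcription factor, with 15.95, and in Ttn, the giant muscle protein titin, with 11.4, both in coding sequence. The lists for B cells, myeloid cells, cytotoxic lymphocytes, neurons and liver held none.

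**Figure D5:**
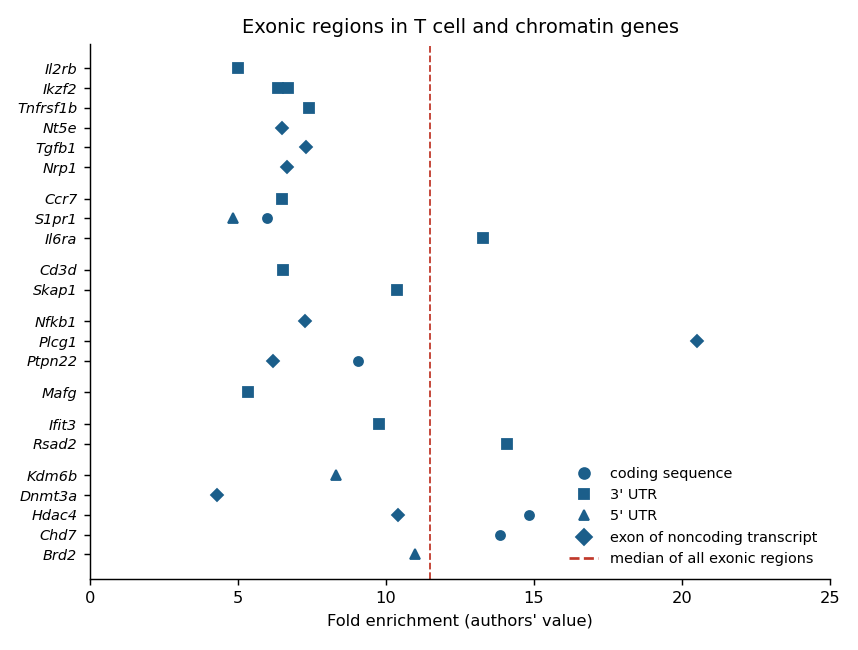
Fold enrichment (x axis, the authors' value) of each exonic region in the genes named of the T cell, interferon and chromatin lists, 1 point per region, with the shape for the part of the transcript and gaps between lists; the dashed line is the median of all exonic regions, 11.5. Plcg1 at 20.5 and Il6ra at 13.3 lie above it, and the core regulatory T cell genes lie at 7.40 or below.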

How the data were processed

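Per the labels, the ATAC-seq libraries are 2 technical replicates of 1 biological replicate. The authors deposited lists of peaks on mm10 made from both together, so no values per library, no replicate test and no p-value were possible. The deposited columns hold for each peak a score (a whole number up to 1000), −log10 p-values and a fold enrichment, which is a linear ratio whose background is not given in the sources used here. The −log10 of the IDR, a measure of reproducibility between 2 ranked sets, comes with the authors' ranked list. Units were read from the values and the order of columns. The aligner, peak caller, depth and shift of reads for the transposase are likewise not given there. No detection limit was therefore set from depth.

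The 58138 peaks of the IDR-thresholded list were merged where they overlapped or touched, and the peak of greatest fold gave the summit and fold. Summits were placed with GENCODE M21 in the order promoter, coding sequence, 3' UTR, 5' UTR, other exon, intron, intergenic; where several transcripts fit, the one of longest coding sequence gave the host gene. Sequence came from the RefSeq copy of GRCm38.p6. Exon centres without a region (263073) served as exon background. Intervals are 95% exact binomial for shares, order-statistic for medians and exact Poisson for densities. Mitochondrial similarity was searched with blastn 2.17.0; other steps used Python 3.11.15, pandas 2.3.3, numpy 2.4.6, scipy 1.17.1, pysam 0.24.0 and samtools 1.23.1. The steps were tested on simulated data.

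Named genes are the 12 coding-sequence, 8 3' UTR and 4 5' UTR regions of greatest fold, genes with 3 or more regions, up to 20 regions in genes of the T cell and chromatin lists, the 3 widest and 3 lowest, those nearest the 1000 bp limit, and up to 8 with a CTCF match. Other members of the lists are named as counts of 5 or fewer require. The regions, the 15 gene lists and the 25 motifs were chosen with earlier results of these data known. A few members are counted but not reported here by name or sequence.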

Additional observations from a re-analysis of the deposited data

How the results depend on the processing

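Each of 7 results was recomputed under 8 to 10 alternatives, 63 values in all. Of these, 40 stayed within the 95% interval of the reported value, 23 left it and 0 reversed. The ratio of exonic to intronic density stayed above 1 under these alternatives, between 1.10 with exons of protein_coding transcripts only, which left its interval, and 1.28 with every summit taken singly, within it. No alternative held distance from a start fixed. In each distance class up to 20000 bp the exonic density was below the intronic one. The CTCF share left its interval with 25 bp windows (6.49%, against 4.54% in introns) and with every summit singly (7.08%, against 4.61%), and was above the intronic share under every alternative run.

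The exonic share of 3.14% became 3.89% in the pseudoreplicated list, 2.50% in the upper 50% by fold, 2.60% for single summits, 3.67% at 500 bp and 2.71% at 2000 bp from a start, 2.22% with exons of protein_coding transcripts only and 2.50% with starts of every transcript type. The coding share of 34.0% became 39.1% in the upper 50%, 47.2% with exons of protein_coding transcripts only and 28.7% with UTRs placed before coding sequence. The median fold of 11.5 became 7.10 in the pseudoreplicated list, 16.7 in the upper 50% and 8.27 for single summits, beside intronic medians of 7.20, 16.5 and 8.59. The CpG ratio of 0.379 became 0.341 in windows of 100 bp and 0.410 with exons of protein_coding transcripts only. The share of host genes with an accessible promoter, 73.9%, became 79.4% in the pseudoreplicated list, 44.96% in the upper 50%, where promoters had to pass the same limit, 77.7% with a promoter window of 2000 bp, 76.9% at 500 bp from a start and 69.4% with exons of protein_coding transcripts only. Apart from the limits built into an alternative, the cause was not tested.

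No paired analysis was possible because both libraries are pooled in every list, and for the same reason no library was left out in turn. The depth is unknown and no detection limit was set from it.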

Other observations

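A further 1139 exonic regions appeared in the pseudoreplicated list only (4.83% of its 23608 additional regions, 4.56 to 5.11%). They were low, with a median fold of 5.31 (5.06 to 5.47) against 5.21 for the intronic regions found there only, and narrow, with a median width of 289 bp. Coding sequence held 416 of them (36.5%), 3' UTRs 447 (39.2%), noncoding-transcript exons 267 and 5' UTRs 9. A CTCF match was found at 11.7% of their summits (9.87 to 13.7%), against 7.40% (6.90 to 7.92%) of the intronic ones, in regions that the thresholded list does not hold.

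Exonic regions were spread unevenly over chromosomes. They made up 4.76% of the regions on chromosome 17 and 4.32% on chromosome 8, against 1.90% on chromosome 12 and 1.72% on chromosome X, where 12 of 697 regions were exonic. Summits in repeat-masked sequence made up 5.63% of exonic regions (4.23 to 7.32%), against 9.94% of intronic ones (9.32 to 10.6%). Set against the centres of exons of the same kind without a region, the share was 6.93% (4.44 to 10.2%) at 3' UTR summits, against 15.2% of centres, and 7.06% (4.24 to 10.9%) at summits in noncoding-transcript exons, against 17.7% of centres. At coding-sequence summits it was 2.87% (1.32 to 5.37%), and the 4.51% of coding exon centres lies inside that interval.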
